A study of Mus musculus with 16 samples.

Results

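The genes described here are 10 enzymes of NAD synthesis and use in mouse quadriceps muscle, measured by RNA sequencing of whole tissue. They are the riboside kinases *Nmrk1* and *Nmrk2*, the phosphoribosyltransferases *Nampt* and *Naprt*, the NMN adenylyl transferases *Nmnat1* and *Nmnat3*, the methyltransferase *Nnmt*, and the NAD-consuming enzymes *Sirt1*, *Sirt3* and *Parp1*. They were taken from the count table by gene symbol, and all 10 were found among 41388 genes, *Naprt* under its older symbol *Naprt1* (ENSMUSG00000022574). The set was chosen from earlier results of these same libraries: *Nmrk2* was singled out by its fold change in *Mtm1* KO + TAM against *Mtm1* KO, and the other 9 genes by pathway. Its values in that comparison are therefore given as a description, with no test.

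The labels give all mice a C57BL/6 background (C57BL6J for the KO line in the study's methods) and an age of 36 days. WT mice and mice labelled mtm1 -/- (*Mtm1* KO, lacking exon 4 of the gene for the lipid phosphatase myotubularin, a model of X-linked myotubular myopathy) were either untreated or received tamoxifen (TAM), an estrogen receptor modulator, in the diet at 40 mg/kg per day from day 21. The deletion was made by homologous recombination and is not limited to muscle fibers. The table holds 16 libraries, 4 per group, and the main set was the 14 of the study's own comparisons: 3 WT, 4 WT + TAM, 3 KO and 4 KO + TAM, each with 25702605 to 29847222 counts. *Mtm1* itself had 341 to 369 counts in WT, 282 to 459 in WT + TAM, 63 to 76 in KO and 53 to 97 in KO + TAM. The library labelled WT replicate 1 had 74 *Mtm1* counts, in the range of the KO libraries and against its label. Its sums of fiber and regenerating fiber markers, given below, were near those of WT. That library and KO replicate 12 (85 counts) were not among the 14. Values with both added stand beside several of the results, mainly those whose call or direction they moved. The 8 fiber markers (*Acta1*, *Ckm*, *Myh4* and others) summed to 98007 to 259635 CPM (read counts scaled to an equal library size) over the 14 libraries, so the defining genes of the labelled tissue were abundant.

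NAD is the cell's carrier of electrons in energy metabolism and the substrate of enzymes that split it. Muscle rebuilds it mainly by salvage. NAMPT joins nicotinamide to a ribose phosphate to make nicotinamide mononucleotide (NMN), NMRK1 and NMRK2 reach the same product by phosphorylating nicotinamide riboside, and NAPRT starts the parallel route from nicotinic acid. NMNAT1 in the nucleus and NMNAT3, described in mitochondria, then turn the mononucleotides into the dinucleotide. NNMT methylates nicotinamide and so removes it from salvage. SIRT1, SIRT3 (a mitochondrial deacylase) and PARP1 (which responds to DNA breaks) consume NAD and release nicotinamide. *Nmrk2* is known as the muscle-enriched riboside kinase and was first described as a muscle integrin binding protein.

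The 2 kinases differed in how much they varied, and their upstream sequences are shown for that reason. RefSeq (build GRCm38.p6) gave a promoter for 8 of the 10 genes, with none matched for *Nnmt* and *Naprt*. The 250 bases before the RefSeq start of each kinase gene are printed 5′ to 3′ on the gene's strand, chr19:18631766-18632015 (+) for *Nmrk1* and chr10:81202038-81202287 (-) for *Nmrk2*. In the GENCODE annotation (vM21) *Nmrk1* begins at 18631950 and *Nmrk2* at 81202051, both inside these windows, so the 2 sources differ on the starts. Capitals mark a TATA box (TATAAA) or an E-box (CANNTG), each searched on both strands, and no match of one overlapped the other.
Nmrk1: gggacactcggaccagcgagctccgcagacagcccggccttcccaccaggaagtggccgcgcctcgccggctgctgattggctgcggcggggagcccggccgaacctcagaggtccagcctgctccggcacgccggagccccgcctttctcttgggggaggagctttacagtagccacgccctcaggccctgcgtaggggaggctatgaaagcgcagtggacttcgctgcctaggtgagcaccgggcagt
Nmrk2: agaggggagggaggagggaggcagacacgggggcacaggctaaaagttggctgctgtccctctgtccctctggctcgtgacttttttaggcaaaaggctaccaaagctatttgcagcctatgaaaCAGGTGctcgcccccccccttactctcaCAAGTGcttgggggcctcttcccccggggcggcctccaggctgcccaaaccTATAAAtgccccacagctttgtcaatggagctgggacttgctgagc
The *Nmrk2* window held 1 TATA box, 46 bases before the RefSeq start (position -46), and 2 E-boxes at -125 and -97. The *Nmrk1* window held neither motif. A TATA box was present in 12.4% and an E-box in 66.2% of 32851 promoter windows of this length, and of the 8 genes matched, *Nmrk2* alone had the TATA letters. The *Nmrk2* window was 58.8% G or C with 5 CpG dinucleotides, against 69.2% and 21 for *Nmrk1*, and the medians over all windows were 52.4% and 6. These are descriptions of letters, and no factor was measured at either promoter.

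*Nmrk2* (ENSMUSG00000004939) lies at chr10:81198170-81202051 on the minus strand, with 7 exons in its 1 annotated transcript. Levels are given as CPM after TMM scaling, which corrects for a few abundant genes taking a different share of reads in each library. In WT muscle *Nmrk2* stood at 23.1, 25.6 and 99.8 CPM in replicates 2, 3 and 4. WT replicate 4 was thus at 4.31 times the lowest of its group, while the other 2 were close together. The 4 WT + TAM libraries had 12.7, 12.1, 27.3 and 30.6 CPM. The 3 KO libraries had 156, 108 and 167 CPM, each above every WT library of the main set. KO + TAM replicates 13, 14 and 15 had 33.0, 21.1 and 24.4 CPM, and replicate 16 had 131 CPM. All KO libraries were thus high and all WT + TAM libraries low, while the WT and KO + TAM groups each held 1 high library. The 2 libraries outside the main set were both high, at 187 CPM for the library labelled WT replicate 1 and 218 CPM for KO replicate 12.

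**Figure D1:**
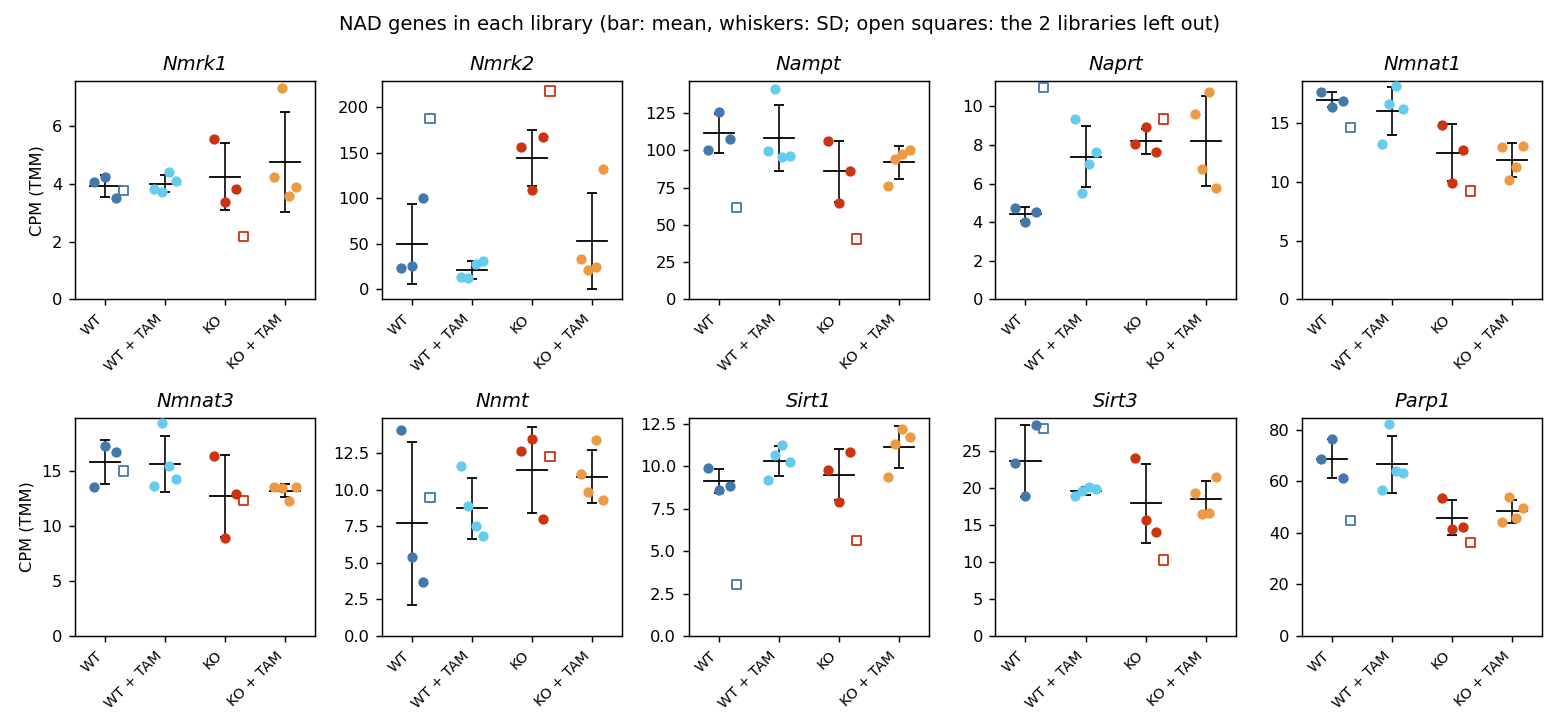
CPM (vertical axes, linear) of the 10 genes in each library of the 4 groups. Filled circles are the 14 libraries of the main set, bars and whiskers are their mean and SD, and open squares are the library labelled WT replicate 1 and KO replicate 12. *Nmrk2* ran from 12.1 to 167 CPM, with WT replicate 4 and KO + TAM replicate 16 apart from their groups.

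The highest *Nmrk2* value among the 14 libraries was 13.7 times the lowest. For the other 9 genes this ratio ran from 1.55 (*Sirt1*) to 3.85 (*Nnmt*). KO replicate 10 was the lowest library for *Nmrk1*, *Nampt*, *Nmnat1*, *Nmnat3*, *Sirt1* and *Parp1*, although its *Nmrk2*, at 108 CPM, was above every WT library. WT + TAM replicate 6 was the highest for *Nampt*, *Nmnat3* and *Parp1* and the lowest for *Nmrk2*. *Nmrk1*, the broadly expressed kinase, stayed between 3.36 and 7.32 CPM. The library labelled WT replicate 1 and KO replicate 12, outside the main set, had 61.6 and 40.5 CPM of *Nampt*. They had 3.04 and 5.64 CPM of *Sirt1*, and both genes were thus lower there than in every library of the main set.

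Levels can be compared between genes only per length, and for this the deposited RPKM values (read counts scaled by gene length and library total) were used. In WT the order from high to low was *Nmrk2* at 25.2 ± 23.0 RPKM (SD, n = 3), *Nampt* at 22.5 ± 1.08, *Parp1* at 16.4 ± 1.06, *Sirt3* at 13.9 ± 3.60 and *Nmnat1* at 5.17 ± 0.541. Below these stood *Nnmt* at 4.56 ± 3.51, *Nmnat3* at 2.90 ± 0.291, *Naprt* at 2.17 ± 0.320, *Sirt1* at 1.58 ± 0.214 and *Nmrk1* at 1.08 ± 0.0868 RPKM. The first place of *Nmrk2* rests on WT replicate 4, at 51.7 RPKM. WT replicates 2 and 3 had 12.1 and 11.8 RPKM, below every WT value of *Parp1* (15.2 to 17.2) and inside the range of *Sirt3* (10.2 to 17.3). The range of *Nnmt* (from 2.21 RPKM) also reached that of *Naprt* (up to 2.41 RPKM). Among neighbours in this order, the ranges of the 3 WT libraries overlapped for *Nmrk2* and *Nampt*, for *Parp1* and *Sirt3*, for *Nmnat1* and *Nnmt*, and for *Nnmt* and *Nmnat3*. The remaining neighbours did not overlap, although *Naprt* (lowest 1.80 RPKM) and *Sirt1* (highest 1.79 RPKM) nearly met.

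**Figure D2:**
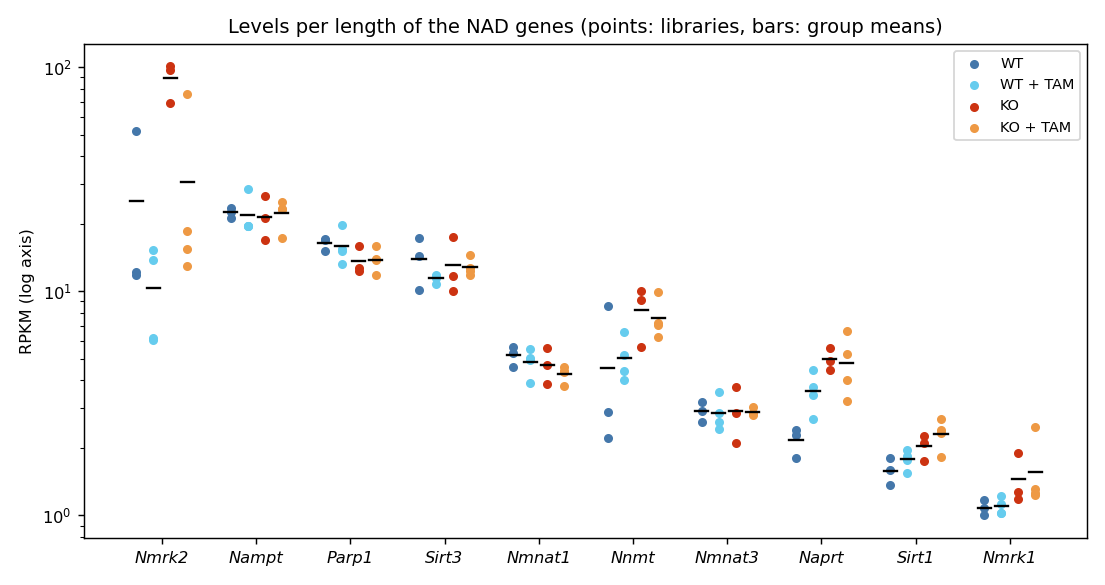
RPKM (vertical axis, log scale) of the 10 genes in the 14 libraries of the main set, ordered by their WT mean. Points are libraries and bars are group means. *Nmrk2* spans 6.08 to 101 RPKM while *Nampt* stays between 16.8 and 28.7 RPKM.

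Set against the other routes into NMN, the rank of *Nmrk2* changed with the group. Its RPKM was 0.569, 0.502 and 2.29 times that of *Nampt* in the 3 WT libraries, and 0.212 to 0.785 times in WT + TAM. In the 3 KO libraries it was 3.64, 4.13 and 4.77 times that of *Nampt*. In KO + TAM it was 1.07, 0.556 and 0.618 times in replicates 13 to 15, and 3.23 times in replicate 16. *Nmrk2* thus had the higher level per length of this pair in every KO library and the lower one in every WT + TAM library. Of the summed RPKM of both kinases, *Nmrk2* made up 84.0% to 98.8% over the 14 libraries, so it was the larger part in each of them.

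The first comparison asks what loss of myotubularin alone did to these genes. In untreated KO against WT muscle none of the 10 reached the threshold, an adjusted p of 0.01 (edgeR, quasi-likelihood test, adjusted by Benjamini-Hochberg over 14740 genes), and 3.6% of all genes tested did. At an unadjusted p of 0.05 the count was 4 of 10, or 3 of 9 without *Nmrk2*, beside 30.1% of all genes. DESeq2 called 2 of 10, with 11.4% of all genes, and edgeR's exact test 1 of 10, with 9.85%. In 4 genes the 3 KO and 3 WT libraries did not overlap, *Nmrk2* and *Naprt* being higher in KO and *Nmnat1* and *Parp1* lower, which was the case for 35.7% of all genes tested. The median log2 difference of the 10 was -0.13, beside 0.02 over all genes.

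*Nmrk2* was 1.53 higher in KO on the log2 scale (SE 0.51, 2.88-fold, adjusted p = 0.0809). Without WT replicate 4 the difference was 2.57 (adjusted p = 0.00145), and with both left-out libraries added it was 0.93 (adjusted p = 0.425). The same KO libraries served in the comparison from which the gene was singled out. Neither its difference nor its place in the counts by unadjusted p and by overlap above is therefore separate evidence.

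*Naprt* (chr15:75890956-75894481, minus strand), the entry enzyme for nicotinic acid, stood at 4.72, 4.03 and 4.53 CPM in WT and at 8.05, 8.91 and 7.61 CPM in KO. The groups were apart, with a log2 difference of 0.89 (SE 0.18, adjusted p = 0.0164), and 1.20 (adjusted p = 0.00553, past the threshold) when libraries were scaled by total count alone. The library labelled WT replicate 1 had 10.96 CPM, above every KO library, and with all 16 libraries the difference was 0.47 (adjusted p = 0.449). Of the exonic bases of *Naprt*, 11.8% are also exons of *Eef1d* on the same strand, and *Eef1d* itself differed by 0.20 (SE 0.14, adjusted p = 0.377).

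*Parp1* (chr1:180568924-180601254, plus strand), the main nuclear poly(ADP-ribose) polymerase, had 68.4, 76.5 and 61.2 CPM in WT and 53.7, 41.4 and 42.4 CPM in KO. Every KO library was below every WT library, with a log2 difference of -0.58 (SE 0.14, adjusted p = 0.0288). *Nmnat1* (chr4:149467572-149485202, minus strand), the nuclear enzyme of the last step, had 17.7, 16.4 and 16.9 CPM in WT and 14.8, 9.95 and 12.8 CPM in KO, a difference of -0.45 (SE 0.16, adjusted p = 0.0986). Both differences depend on the scaling. Scaling by total counts alone moved the median over all genes from 0.02 to 0.33, and the differences were -0.27 for *Parp1* (adjusted p = 0.172) and -0.14 for *Nmnat1* (adjusted p = 0.565). In deposited RPKM, which are scaled to total counts, *Parp1* was 16.4 ± 1.06 in WT and 13.6 ± 2.01 in KO (SD, n = 3 each), with overlapping ranges.

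The other 6 genes overlapped between WT and KO. *Nampt*, the main salvage enzyme, was at 111 ± 13.2 CPM in WT and 85.9 ± 20.6 CPM in KO (SD, n = 3 each), a log2 difference of -0.38 (95% interval -0.78 to 0.02). *Sirt3* differed by -0.40 (-0.91 to 0.11) and *Nmnat3* by -0.31 (-0.79 to 0.16), the latter 0.00030 under total-count scaling. *Nnmt* had 14.1, 5.36 and 3.65 CPM in WT and 12.6, 13.4 and 7.96 CPM in KO and differed by 0.56 (-0.43 to 1.55). That difference was 1.34 (adjusted p = 0.0286) without WT replicate 2 and 0.23 without WT replicate 4. The fat cell markers summed to 1859, 278 and 484 CPM in WT replicates 2, 3 and 4, and to 1871, 1104 and 1023 CPM in KO. In WT + TAM they summed to 2968, 1913, 746 and 751 CPM, where *Nnmt* had 11.6, 8.91, 7.54 and 6.85 CPM. In KO + TAM they summed to 1283, 969, 1120 and 1472 CPM, where *Nnmt* had 11.1, 9.85, 13.4 and 9.26 CPM. The part of fat cells in the *Nnmt* values was not tested. *Nmrk1* differed by 0.11 (-0.44 to 0.66, but -0.07 with all 16 libraries) and *Sirt1* by 0.06 (-0.33 to 0.45). The interval of *Nnmt* holds the difference seen for *Naprt*, and those of *Nampt* and *Sirt3* hold that of *Parp1*, so equal levels were not shown.

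Marker genes of the tissue also differed between the genotypes. The 8 fiber markers summed to 184147 to 259635 CPM in WT and to 110281 to 132537 CPM in KO (0 of 8 past the threshold), and the 6 markers of regenerating or denervated fibers (*Myog*, *Chrna1*, *Ncam1* and others) to 60.5 to 75.3 CPM against 271 to 381 CPM, all 6 higher in KO by the test. The 7 macrophage and leukocyte markers summed to 127 to 152 CPM in WT and 182 to 240 CPM in KO, with none passing the test. Of the fibroblast, fat cell, endothelium and red blood cell markers none passed in KO against WT. No marker was at 0 in any of the 14 libraries. The part of these shifts in the values of the NAD genes was not tested. In whole tissue, fewer cells of a type and less RNA per cell cannot be told apart. Outside the main set, the library labelled WT replicate 1 had 248968 CPM of fiber markers and 59.7 CPM of regenerating fiber markers. KO replicate 12 had 130921 and 524 CPM of the same markers. The high *Nmrk2* of WT replicate 4 came with a regeneration marker sum of 61.9 CPM, between those of the other 2 WT libraries (60.5 and 75.3 CPM). In KO replicates 9, 10 and 11 the sums were 271, 283 and 381 CPM, beside 156, 108 and 167 CPM of *Nmrk2*. KO + TAM replicates 13 to 16 had sums of 255, 368, 288 and 246 CPM, beside 33.0, 21.1, 24.4 and 131 CPM of *Nmrk2*. Any relation of these sums to *Nmrk2* was not tested.

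The second comparison asks what tamoxifen changed in KO muscle. *Nmrk2* was lower in KO + TAM replicates 13, 14 and 15 than in every KO library, whereas replicate 16, at 131 CPM, lay between KO replicates 10 and 9. The fitted log2 difference was -1.47 (SE 0.53), and it ran from -2.47 without KO + TAM replicate 16 to -1.21 without KO + TAM replicate 14. With KO replicate 12 added it was -1.66. For the other 9 genes the differences were small, from -0.09 (*Nmnat1*) to 0.21 (*Sirt1*), with adjusted p from 0.846 to 0.996. None of these 9 passed the threshold or an unadjusted p of 0.05 by the edgeR quasi-likelihood test, and DESeq2 and the exact test called none either. Over all 15062 genes 0% passed, 7.55% had an unadjusted p up to 0.05, and DESeq2 and the exact test each called 72 genes, or 0.478%. None of the 10 genes separated the groups, which 7.69% of all genes tested did. Their median difference was 0.03, beside -0.01 over all genes. *Nampt*, as an example, had 106, 64.9 and 86.5 CPM in KO and 76.1, 94.0, 97.6 and 100.4 CPM in KO + TAM, a difference of 0.08 with an interval of -0.28 to 0.45.

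**Figure D3:**
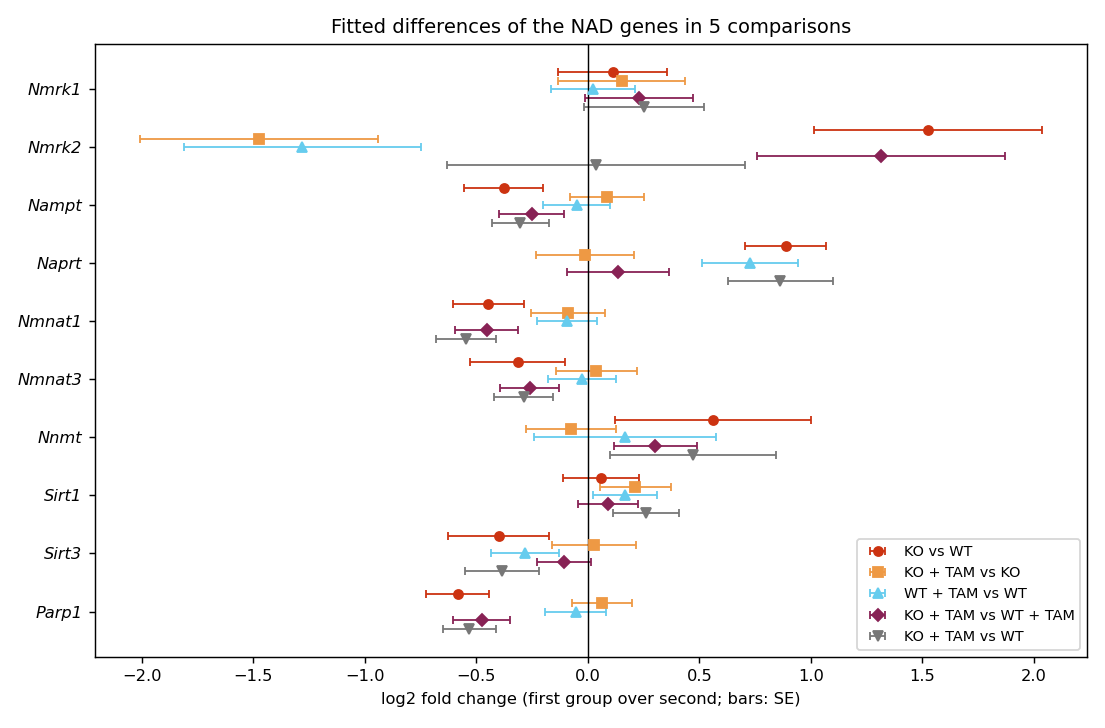
Fitted log2 fold changes (horizontal axis, first group over second) of the 10 genes in 5 comparisons, with bars for the SE. *Nmrk2* lies at -1.47 in KO + TAM against KO and at 1.53 in KO against WT, with the longest bars, and the other 9 genes lie between -0.58 and 0.89.

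Tamoxifen was also compared with no treatment in WT muscle, in libraries outside the comparison that singled out *Nmrk2*. Its log2 difference was -1.28 (SE 0.53, adjusted p = 0.432), with overlapping groups. WT replicates 2 and 3 lay inside the range of the 4 WT + TAM libraries, and without WT replicate 4 the difference was -0.23 (adjusted p = 0.938). With the library labelled WT replicate 1 added it was -2.05 (adjusted p = 0.415). *Naprt* was the 1 gene of the 10 whose groups did not overlap, with 9.35, 5.51, 7.04 and 7.64 CPM in WT + TAM, all above the WT libraries. Its difference was 0.73 (SE 0.21, adjusted p = 0.240), and 0.27 (adjusted p = 0.833) with the library labelled WT replicate 1. None of the 10 passed the threshold, where 0.131% of 14544 genes did, and 11.2% of all genes separated these groups. By an unadjusted p of 0.05, 2 of the 10 passed, beside 10.7% of all genes, and DESeq2 and the exact test called 0, beside 1.47% and 1.22%. The other 8 genes ran from -0.28 (*Sirt3*) to 0.17 (*Sirt1*).

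Whether tamoxifen acted differently in KO and WT muscle was tested directly by the interaction over all 14 libraries. None of the 9 genes other than *Nmrk2* passed, against 0% of 15556 genes (4.27% at an unadjusted p up to 0.05, 0.0707% called by DESeq2). Of the 9, 1 passed an unadjusted p of 0.05 and DESeq2 called 0. That gene was *Naprt*, with a difference between the effects of -0.73 (SE 0.31, unadjusted p = 0.0330, adjusted p = 1.00), its means being 4.43 ± 0.356 CPM in 3 WT, 7.38 ± 1.59 in 4 WT + TAM, 8.19 ± 0.661 in 3 KO and 8.22 ± 2.34 in 4 KO + TAM libraries (SD). For *Nmrk2* the difference between the 2 tamoxifen effects was -0.19 with an SE of 0.87, given as a description. It was 0.40 with all 16 libraries and ran from -1.24 (without WT replicate 4) to 0.15 (without WT replicate 2), so its sign was not settled.

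Among treated mice, KO + TAM was set against WT + TAM. None of the 10 genes passed the threshold, where 6.72% of 14563 genes did. At an unadjusted p of 0.05 the count was 3 of 10, beside 32.3% of all genes, DESeq2 called 1 (*Parp1*), beside 13.7%, and the exact test 0, beside 12.5%. *Parp1* had 56.7, 82.3, 64.0 and 63.1 CPM in WT + TAM and 44.1, 54.0, 45.6 and 49.8 CPM in KO + TAM. The groups did not overlap, and the log2 difference was -0.48 (SE 0.13, adjusted p = 0.0272). *Nmnat1* was also lower without overlap, by -0.45 (SE 0.14, adjusted p = 0.0481), and *Nmnat3* by -0.26 (SE 0.13, adjusted p = 0.202), and all 3 depend on the scaling. Total-count scaling moved the median of all genes from -0.01 to 0.27, and the differences to -0.20 for *Parp1* (adjusted p = 0.322), -0.18 for *Nmnat1* (adjusted p = 0.370) and 0.01 for *Nmnat3*. For *Nmnat3* the highest KO + TAM library and the lowest WT + TAM library both stood at 13.6 CPM. The marker sums of regenerating fibers were 57.5 to 95.4 CPM in WT + TAM and 246 to 368 CPM in KO + TAM (6 of 6 higher), and 4 of 8 fiber markers were lower, with their part in these values not tested. Groups without overlap were seen in 22.4% of all genes. *Nmrk2* was 1.31 higher (SE 0.55, adjusted p = 0.126), a difference that was 0.32 without KO + TAM replicate 16. The same KO + TAM libraries served to single out this gene, so neither its difference nor its place among the 3 of 10 is separate evidence. *Naprt* differed by 0.14 (interval -0.36 to 0.64).

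KO + TAM was last compared with untreated WT muscle. None of the 10 genes passed, where 7.7% of 14942 genes did. At an unadjusted p of 0.05 the count was 5 of 10, beside 34% of all genes. DESeq2 and the exact test each called 3 of 10, *Naprt*, *Nmnat1* and *Parp1*, beside 15.9% and 14% of all genes. The differences of these 3 genes were 0.86 (SE 0.24, adjusted p = 0.0270), -0.55 (SE 0.14, adjusted p = 0.0184) and -0.53 (SE 0.12, adjusted p = 0.0111), in that order. Together with *Nampt* (-0.30, SE 0.13, adjusted p = 0.121) they were the 4 genes without overlap, against 31.2% of all genes. Under total-count scaling the differences were 1.14 for *Naprt* (adjusted p = 0.00752), -0.28 for *Nmnat1* (adjusted p = 0.188), -0.25 for *Parp1* (adjusted p = 0.181) and -0.01 for *Nampt*, with the median of all genes at 0.28 in place of 0.00. With the library labelled WT replicate 1 added they were 0.40 for *Naprt* (adjusted p = 0.548), -0.51 for *Nmnat1* (adjusted p = 0.0608), -0.41 for *Parp1* (adjusted p = 0.168) and -0.14 for *Nampt*. In the same libraries all 6 markers of regenerating fibers were higher in KO + TAM, and 2 of 8 fiber markers and 1 of 5 endothelium markers lower, and their part in these values was not tested. *Nmrk2* differed by 0.04 with an SE of 0.67, with a 95% interval from -1.43 to 1.51, and by -0.74 with the library labelled WT replicate 1. Its KO + TAM libraries here are again those of the comparison that singled it out. *Nnmt* differed by 0.47 (adjusted p = 0.408), and by 1.25 (adjusted p = 0.00696) without WT replicate 2, its highest WT library. Without WT replicate 4, its lowest WT library, the *Nnmt* difference was 0.14. This comparison shares its KO + TAM libraries with the one before and its WT libraries with the first, so the values of *Parp1* and *Nmnat1* in them are not independent.

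Counting at the *Nmrk2* locus has a limit, and *Sirt3* has a similar one. The antisense gene *Atcayos* (chr10:81194609-81210877, plus strand) spans the whole of *Nmrk2*, and 14.6% of the exonic bases of *Nmrk2* are also exonic in *Atcayos*. No source used here gives the strand setting of the counting, so reads from the shared stretches cannot be assigned to 1 of the 2 genes. *Atcayos* had 4890, 5159 and 4765 counts in WT and 3183, 4256 and 2611 in KO, a log2 difference of -0.82 (SE 0.19, adjusted p = 0.0263). In KO + TAM it had 8561, 7339 and 6525 counts in replicates 13 to 15 and 2857 in replicate 16, the library in which *Nmrk2* was high. The log2 difference of *Atcayos* in KO + TAM against KO was 0.83 (SE 0.31, adjusted p = 0.525). In WT + TAM it had 6779, 5122, 3571 and 3830 counts. *Nmrk2* itself had 4664, 3324 and 5216 counts in KO, and 987, 702, 851 and 3931 in KO + TAM. WT replicate 4, in contrast, combined 2621 *Nmrk2* counts with 4765 for *Atcayos*, and the library labelled WT replicate 1 combined 3760 with 6096. The antisense counts of the 3 KO libraries and of KO + TAM replicate 16 were thus below those of every WT library. WT replicate 4 had the lowest antisense count of the WT libraries in the main set, and the library labelled WT replicate 1 was above all of them. WT + TAM replicates 7 and 8 were also below every WT library in antisense counts, although their *Nmrk2* counts were low, at 648 and 733. KO replicate 12 combined 6057 *Nmrk2* counts with 4856 for *Atcayos*. The part of *Atcayos* in the *Nmrk2* counts was not tested. Of the exonic bases of *Sirt3*, 12.7% are also exonic in genes on the opposite strand, *Ric8a* and *Psmd13*. *Psmd13* had 2923, 2588 and 2888 counts in WT and 3887, 5528 and 5997 in KO. The part of these genes in the *Sirt3* counts was not tested.

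**Figure D4:**
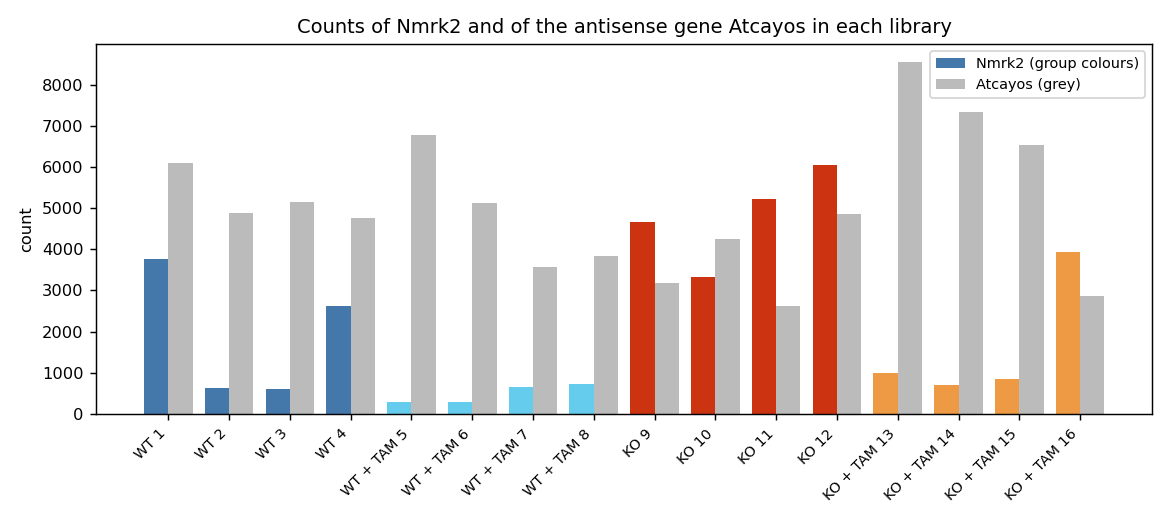
Counts (vertical axis, linear from 0) of *Nmrk2* in group colours and of the antisense gene *Atcayos* in grey, in each of the 16 libraries. In KO + TAM replicates 13 to 15 *Atcayos* has 6525 or more counts and *Nmrk2* 987 or fewer, while in replicate 16 *Nmrk2* has 3931 and *Atcayos* 2857.

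The genes whose profiles over the 14 libraries came nearest to that of *Nmrk2* were *Gm10012*, *Atp1b4*, *Gal3st3*, *Alox12* and *Gm5844*, by the root mean square difference of log2 CPM after centring each gene (0.752, 0.777, 0.783, 0.791 and 0.810, among 15556 genes). The spread of *Nmrk2* about its own mean, on the same measure, was 1.29. *Atp1b4*, a muscle relative of the sodium pump beta subunits, was the most abundant of them, with 7.06 to 14.3 CPM in WT, 13.4 to 23.8 in KO, and 22.2 CPM in KO + TAM replicate 16 against 8.49 to 13.9 in the other 3. *Alox12*, an arachidonate lipoxygenase, was at 3.43 to 4.60 CPM in KO but at 1.04 CPM in KO + TAM replicate 16, unlike *Nmrk2*. In the main set *Gm10012* was at most 3.36 CPM, *Gm5844* at most 0.959 CPM and *Gal3st3* at most 0.576 CPM, with 0 in some libraries. *Gal3st3* and *Gm5844* thus rest on few reads, and both were too low to be tested in WT + TAM against WT. Over all 16 libraries, 3 of these 5 genes were again among the nearest 5.

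Around the 10 genes, 65 other genes of NAD metabolism were listed by role, 64 were in the table and 52 to 55 passed the filter on low counts in a comparison. In KO against WT 1 of 53 passed the threshold (3.6% of all genes did), *Adprhl1*, a muscle-enriched relative of the ADP-ribosyl hydrolases, which rose from 21.0 ± 3.20 to 44.9 ± 4.45 CPM (SD, n = 3 each, log2 difference 1.09, SE 0.16, adjusted p = 0.00372). Leaving out 1 library ended this call in 5 of 6 cases (adjusted p up to 0.0149), and with all 16 libraries its difference was 0.89 (adjusted p = 0.102). It was higher by 1.10 in KO + TAM than in WT + TAM as well (SE 0.16, adjusted p = 0.00139), where *Macrod2*, an ADP-ribose hydrolase, fell by 0.71 (adjusted p = 0.00252, and by 0.43 with adjusted p = 0.0245 under total-count scaling). These 2 were the only calls among the 52 listed genes tested there, beside 6.72% of all genes. Neither tamoxifen comparison nor the interaction called any of the list in the edgeR quasi-likelihood test, with 53, 53 and 55 genes tested. At an unadjusted p up to 0.05 there were 8, 8 and 2, beside 7.55%, 10.7% and 4.27% of all genes. DESeq2 called 1 (*Cyp2e1*) in KO + TAM against KO, 3 (*Pnp*, *Art5* and *Parp7*) in WT + TAM against WT and 0 in the interaction. Over all genes DESeq2 called 0.478%, 1.47% and 0.0707% in these comparisons.

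In KO + TAM against WT, 6 of 54 passed, 3 in each direction, beside 7.7% of all genes. With the library labelled WT replicate 1 added none of the 6 passed, their adjusted p running from 0.0110 (*Pnp*) to 0.232 (*Parp8*), and under total-count scaling *Rnls*, *Cd38* and *Parp8* did not. Leaving out 1 library gave 1 to 5 calls. Those that rose were *Art5*, an ectoenzyme that transfers ADP-ribose (log2 difference 1.68), *Adprhl1* (1.20) and *Pnp*, the purine nucleoside phosphorylase that can split nicotinamide riboside (0.98). Those that fell were *Rnls*, a flavoprotein oxidase of NAD(P)H isomers (by 1.03), *Cd38*, a major NAD glycohydrolase (by 0.73), and *Parp8*, of the poly(ADP-ribose) polymerase family (by 0.62). *Cd38* stood at 15.5 ± 2.45 CPM in WT, 8.87 ± 2.43 in WT + TAM, 14.1 ± 3.51 in KO and 9.52 ± 0.338 in KO + TAM. It was lower on average in both treated groups, but neither tamoxifen comparison passed for it. *Pnp* stood at 12.8 ± 4.11, 26.1 ± 6.42, 18.4 ± 1.18 and 25.8 ± 0.845 CPM in the same order of groups (SD, n = 3, 4, 3 and 4). *Pnp* has a near-identical neighbour, *Pnp2*, and how reads were divided between them is uncertain. None of the 5 other sirtuins passed in any comparison. Of 9 listed genes of synthesis from tryptophan, 3 passed the filter on low counts, and none of these 3 passed the test.

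**Figure D5:**
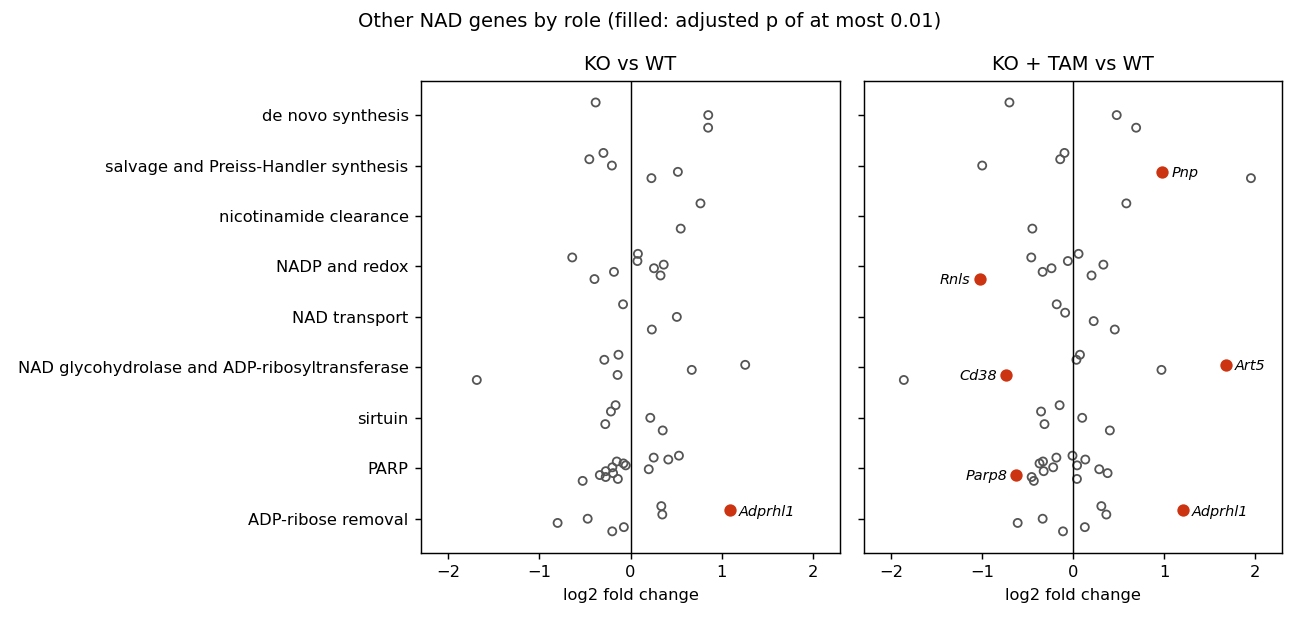
Log2 fold changes (horizontal axes) of the other NAD genes by role in KO against WT and in KO + TAM against WT. Filled points passed an adjusted p of 0.01, 1 on the left (*Adprhl1*) and 6 on the right, and open points did not.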

How the data were processed

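RNA from quadriceps was made into libraries with an Illumina TruSeq kit. Per the study's methods and the submitters' processing notes, the authors made reads with bcl2fastq 2.17, aligned them to GRCm38 with STAR 2.5.0c, and deposited raw counts per gene (HTSeq). They also deposited RPKM values, which followed the counts scaled to column totals. Cufflinks 2.2.1 is named without a role. For the HTSeq version, its strand setting, the annotation and the gene lengths, no source used here gives a value.

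From the deposited counts, each pair of groups was filtered (filterByExpr, minimum count 10, minimum total 15), scaled by TMM and fitted with edgeR 4.0.16 (quasi-likelihood test, R 4.3.3), with Benjamini-Hochberg adjustment over all genes tested and the study's threshold of 0.01. Intervals are 95% t intervals of the fit and do not cover multiple testing. The scripts were tested on simulated data, where a minimum share of recovered changes was required of DESeq2 only, not of the edgeR tests. CPM shown use TMM factors over all 16 libraries, and depth was 25116179 to 29847222 counts per library. The lowest genes rest on few counts, *Nmrk1* on 92 to 111 and *Naprt* on 94 to 129 in each WT library. The part of counting error in their spread was not tested. No 2 libraries held identical counts. The replicate numbers name samples only, and p-values measure the spread between these libraries.

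Members and lists were chosen with earlier results of these data known. All 10 genes were named in every library; of the NAD list, those past the threshold (at most 12); and the 5 genes nearest to *Nmrk2*. Positions and overlaps are from GENCODE vM21 (GRCm38). Alternatives were RLE or library size scaling, no filter, DESeq2 1.42.0, edgeR's exact test, calls by both, 1 fit of 4 groups, a threshold of 0.05, 16 libraries and leaving out each library. For the other NAD genes, 4 of these (library size, DESeq2, 16 libraries, leaving out) were added after seeing the data.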

Additional observations from a re-analysis of the deposited data

Results flagged for a closer look

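In 40 sets of 4 libraries (10 genes in 4 groups, with all 16 libraries), the highest or lowest library was checked for a gap to the rest that took up most of the group's range. Chance alone sets apart about 1 in 20 such groups. *Nmrk2* was high in KO + TAM replicate 16, at 131 CPM against 21.1 to 33.0 CPM in the other 3. *Nampt* was high in WT + TAM replicate 6, at 142 CPM against 95.7 to 99.5 CPM. *Naprt* was high in the library labelled WT replicate 1, at 10.96 CPM against 4.03 to 4.72 CPM. *Nmnat3* was low in KO + TAM replicate 15, at 12.3 CPM against 13.5 to 13.6 CPM, a gap that is small in size because the other 3 were so close together.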

How the results depend on the processing

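The number of the 10 genes past the threshold was 0 in all 6 comparisons and moved as follows. In KO against WT it was 1 under library size alone (beside 7.89% of all genes), 2 with DESeq2 (11.4%) and 1 with the exact test (9.85%). It was 1 where both agreed on a call (9.31%) and 2 at a threshold of 0.05 (12.8%). Over the leave-one-out fits it was 0 to 1, with 1 being *Nmrk2* without WT replicate 4 (1.28% of all genes). For KO + TAM against KO and the interaction it covers the 9 genes other than *Nmrk2* and was 0 under every alternative. Between KO + TAM and WT + TAM it was 1 with DESeq2 (beside 13.7% of all genes) and 2 at 0.05 (17%). Between KO + TAM and WT it was 1 under library size alone (beside 12.5% of all genes) and 1 with no filter (7.92%). It was 3 with DESeq2 (15.9%), with the exact test (14%), with both (13.5%) and at 0.05 (20%). Over the leave-one-out fits it was 0 to 1, with 1 being *Nnmt* without WT replicate 2 (4.77% of all genes). Why the tools differ was not tested. Of 890 log2 differences under alternatives, 806 kept their sign and side of the threshold, 66 changed sign, 15 passed the threshold and 3 moved by more than the spread between libraries. Those that changed sign belong to 29 results of at most 0.31 in size. Under library size alone they were 0.00030 (*Nmnat3*, KO against WT), -0.0067 (*Nmnat3*) and -0.026 (*Sirt3*) in KO + TAM against KO, 0.030 (*Nampt*), 0.014 (*Nmnat3*) and 0.17 (*Sirt3*) in KO + TAM against WT + TAM, and -0.043 (*Nmnat1*, interaction). With 16 libraries they were -0.068 (*Nmrk1*, KO against WT), 0.0046 (*Nmnat1*, KO + TAM against KO), 0.12 (*Nampt*) and 0.078 (*Parp1*) in WT + TAM against WT, -0.74 (*Nmrk2*, KO + TAM against WT) and -0.052 (*Sirt1*) and 0.40 (*Nmrk2*) in the interaction. In 1 fit of 4 groups *Naprt* was 0.00047 in KO + TAM against KO. Leaving out each library in turn gave both signs for these log2 differences. In KO against WT they ran from -0.11 to 0.26 (*Nmrk1*) and -0.054 to 0.18 (*Sirt1*). For KO + TAM against KO the ranges were -0.074 to 0.26 (*Nampt*), -0.16 to 0.13 (*Naprt*), -0.22 to 0.041 (*Nmnat1*), -0.16 to 0.25 (*Nmnat3*), -0.13 to 0.38 (*Nmrk1*), -0.27 to 0.077 (*Nnmt*) and -0.11 to 0.29 (*Sirt3*). For WT + TAM against WT the ranges were -0.19 to 0.028 (*Nampt*), -0.13 to 0.033 (*Nmnat3*), -0.040 to 0.068 (*Nmrk1*), -0.17 to 0.96 (*Nnmt*) and -0.16 to 0.011 (*Parp1*). For KO + TAM against WT + TAM the ranges were -0.0076 to 0.27 (*Naprt*) and -0.061 to 0.36 (*Nmrk1*). For KO + TAM against WT the ranges were -0.038 to 0.37 (*Nmrk1*) and -0.96 to 1.09 (*Nmrk2*). For the interaction the ranges were -0.012 to 0.31 (*Nampt*), -0.12 to 0.14 (*Nmnat1*), -0.12 to 0.28 (*Nmnat3*), -0.15 to 0.37 (*Nmrk1*), -1.24 to 0.15 (*Nmrk2*), -1.01 to 0.10 (*Nnmt*) and -0.056 to 0.16 (*Sirt1*). For the other NAD genes the alternatives were chosen after seeing the data. The number called in KO against WT (1 of 53) was 5 under library size alone (beside 7.89% of all genes) and 7 with DESeq2 (11.4%). It was 0 with 16 libraries (1.44%) and 0 to 1 over the leave-one-out fits. In KO + TAM against WT (6) the number was 0 with 16 libraries (2.03%) and 1 to 5 over the leave-one-out fits. With DESeq2 it was 1 in KO + TAM against KO (beside 0.478% of all genes) and 3 in WT + TAM against WT (1.47%), in place of 0. Between KO + TAM and WT + TAM (2) it was 1 to 2 over the leave-one-out fits. The study's supplement describes the RNA samples as coming from littermates, but no label names a litter. The groups share no replicate numbers either, so no paired analysis was possible.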
